A study of Mus musculus with 16 samples.

Results

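Clusters 23 and 36 are groups of cells that the authors left unnamed in a single-cell RNA sequencing study of interscapular brown adipose tissue, and nearly all of their cells came from mice kept at 5 °C for 2 days. They were taken as the cells with number 23 or 36 at the finest clustering, resolution 1.8, in the authors' table of all cells. That gave 1377 cells of cluster 23 and 670 cells of cluster 36, 2047 of 109723 cells in all. The clusters were chosen by their measured abundance in the 2-day cold libraries. Their excess there is therefore the criterion of choice, described here without a test.

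The study used C57BL6J mice and sequenced the stromal vascular fraction, which is what remains of digested fat tissue once the floating adipocytes are taken off. It asked how the cellular make-up of brown fat changes as cold remodels the tissue. The 4 housing conditions had 4 libraries each, 16 in all, and no other treatment or allele was named. Thermoneutral mice were kept at 30 °C for 1 week, room-temperature mice at 22 °C for 1 week, and cold mice at 5 °C, either 2 or 7 days. Red cells were lysed and dead cells were removed before cells were captured in droplets. The labels do not say whether the libraries of a condition came from separate animals, so p-values measure the spread between libraries, which may be partly technical.

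Brown fat burns fuel to make heat, and cold exposure enlarges and remodels it. In rodents the early response to cold includes DNA synthesis and division among endothelial and progenitor cells of the stromal fraction. Cells in S phase copy their DNA and express replication genes, whereas cells in G2 or M prepare for and carry out division and express mitotic genes. The deposited table holds an S score and a G2M score for each cell, which summarise such gene lists, and a phase call made from them. A cell was called S when its S score was positive and above its G2M score, G2M when its G2M score was positive and the higher, and G1 when both were negative. That rule gave the deposited call in 100% of cells. Gene values were not analysed here, so neither cluster was checked against cell type markers and neither is given a cell type. The authors named 24352 of the 109723 cells, and 0 of the 2047 cells are among them. The other clusters that fell into the same groups at the coarsest clustering, resolution 0.1, also held 0% named cells. The lack of a name thus does not set the chosen clusters apart from these.

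The libraries held 1473 to 10005 cells each, with a median of 1978.5 to 9819 unique transcript counts (UMIs) per cell. The lowest UMI count kept in a library ranged from 800 to 1921. Replicate 1 of 2-day cold differed from the rest in its mitochondrial UMIs, at a median of 29.1% against 2.47% to 6.01% in the other libraries. Of 108170 distinct cell barcodes, 1537 occurred in more than 1 library. Among the cells with such a barcode, 37 were in cluster 23 and 13 in cluster 36.

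Cluster 23 was a cluster of the 2-day cold libraries. It held 28 cells (0.280% of the library) in replicate 1 of 2-day cold, 51 cells (0.557%) in replicate 2, 868 cells (8.91%) in replicate 3 and 421 cells (4.21%) in replicate 4. The mean share was 3.49% ± 4.03 (SD, n = 4). All 4 libraries lay above the other 12, but they differed widely among themselves, and replicate 3 alone gave 63.0% of the cluster. The other 12 libraries held 9 cells of cluster 23 in all, at most 0.0679% of a library. In 5 of them 0 cells were found, which allows shares of up to 0.0300% to 0.175%, depending on the size of the library (3 cells of its total, counting error only). At 7 days of cold the cluster had 2, 1, 1 and 1 cells in replicates 1 to 4. Of the cluster's cells, 99.3% came from 2-day cold, a condition that supplied 38906 of the 109723 cells.

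Cluster 36 was also highest in all 4 libraries of 2-day cold, and more evenly so. Replicates 1 to 4 held 69, 129, 155 and 246 cells, or 0.690%, 1.41%, 1.59% and 2.46% of the library, a mean of 1.54% ± 0.728 (SD, n = 4). At 7 days it held 19, 5, 15 and 7 cells, or 0.258%, 0.144%, 0.175% and 0.475%. At room temperature it held 2, 3, 3 and 8 cells (0.0704%, 0.0429%, 0.0300% and 0.336%), and at thermoneutrality 2, 1, 5 and 1 cells (0.0200%, 0.0583%, 0.05% and 0.0167%). Replicate 4 at room temperature lay above 3 of the 4 libraries of 7-day cold. In the thermoneutral libraries the highest share stayed below the lowest of 7-day cold. Of the cluster's cells, 89.4% came from 2-day cold.

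**Figure D1:**
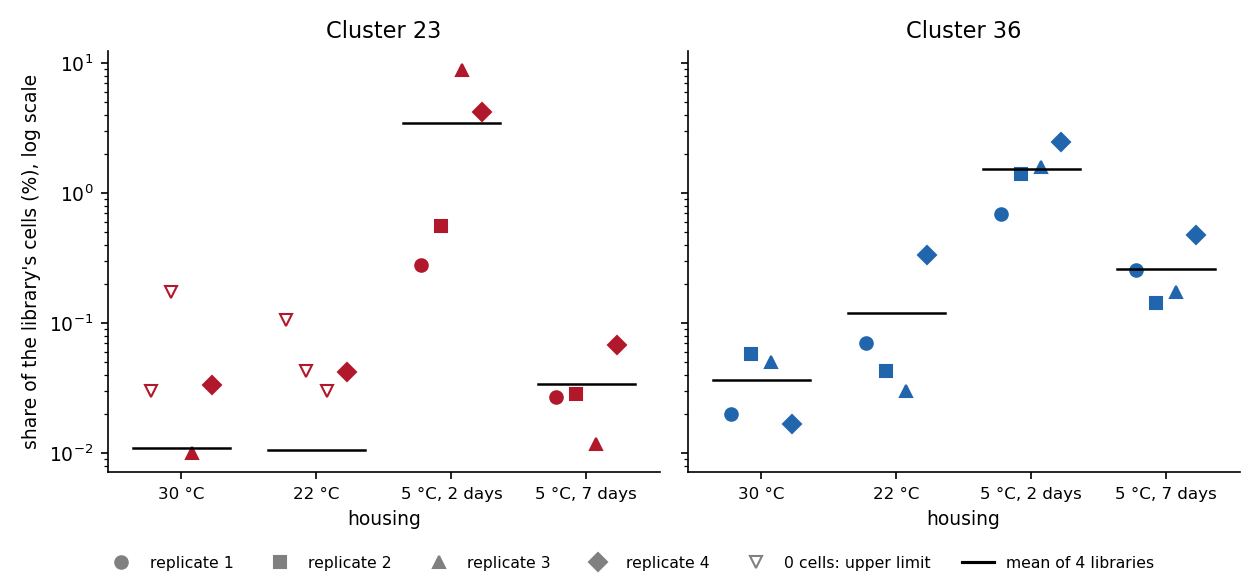
Share of each library's cells in cluster 23 (left) and cluster 36 (right) by housing, on a log axis. Each filled symbol is 1 library, open triangles mark the upper limit where 0 cells were found, and bars are means of 4 libraries with 0 counted as 0. In both panels the 4 libraries of 2-day cold lie above the other 12, from 0.280% to 8.91% for cluster 23 and from 0.690% to 2.46% for cluster 36.

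The clusters belong to different branches of the authors' clustering. At the coarsest resolution, 0.1, all 1377 cells of cluster 23 lay in cluster 0 (36442 cells) and all 670 cells of cluster 36 in cluster 1 (17719 cells). Each made up 3.78% of its coarse cluster over all libraries. Within 2-day cold, cluster 36 was a steady part of coarse cluster 1. It was 9.22%, 11.6%, 12.1% and 11.9% of it in replicates 1 to 4, a mean of 11.2% ± 1.34 (SD, n = 4), and coarse cluster 1 itself was 7.48%, 12.1%, 13.1% and 20.7% of the library, the same order of libraries as for the share of cluster 36. Cluster 23 was 3.14%, 1.49%, 18.3% and 13.7% of coarse cluster 0, a mean of 9.16% ± 8.15 (SD, n = 4). Replicates 1 and 2 were low, and replicates 3 and 4 high, on both scales. The number of cells in cluster 23 for each cell in cluster 36 was 0.406 and 0.395 in replicates 1 and 2, and 5.60 and 1.71 in replicates 3 and 4.

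Of 61 clusters at resolution 1.8, 55 averaged 10 or more cells a library. Among these, 2 had every library of 2-day cold above all others, and they were clusters 23 and 36 (3.64% of the clusters). Since the choice rests on that contrast, nothing is read from this count. On the log2 odds scale, with 0.5 cells added to each number, cluster 23 was higher in 2-day cold than at thermoneutrality by 6.55 ± 1.10 (SE) and higher than at room temperature by 6.85 ± 1.10. Cluster 36 was higher by 5.10 ± 0.73 and 4.05 ± 0.73. From 2 to 7 days of cold the estimate fell by 5.34 ± 1.10 for cluster 23 and by 2.51 ± 0.73 for cluster 36. The values for cluster 23 rest on libraries with 0 to 2 cells outside 2-day cold, so their size depends on the 0.5 cells added. Without replicate 1 of 2-day cold, the difference from thermoneutrality was 7.38 for cluster 23 and 5.44 for cluster 36. Within replicates 1 and 2 of all conditions it was 5.06 and 4.42, and within replicates 3 and 4 it was 8.03 and 5.77.

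The contrasts below compare the means of the other conditions. Their SE and p-values come from a fit of all 16 libraries, so they also draw on the spread among the 2-day libraries. The thermoneutral, room-temperature and 7-day libraries also took part in the choice of the clusters, which set 2-day cold against all of them, so the p-values are not independent of that choice. Against thermoneutrality, cluster 36 was higher at 7 days of cold by 2.58 ± 0.73 on the log2 odds scale, in 4 of 4 libraries, and did not pass the threshold (limma, adjusted p = 0.110). In this contrast 0 of 55 clusters were called (0%), with 8 at an unadjusted p under 0.05. On the same cell numbers, edgeR called 0 clusters and DESeq2 called 3 of 52, cluster 36 among them (2.87 ± 0.86, adjusted p = 0.0145). The adjusted p also fell below 0.05 when cells with 20% or more mitochondrial UMIs were left out (0.0296), when shares were taken of the coarse cluster (0.0342), and without replicate 4 of room temperature (0.0446). Over all alternatives it ranged from 0.0145 to 0.414. Of the 55 clusters, 4 had all 7-day libraries above all thermoneutral ones (7.27%), namely clusters 11, 36, 40 and 43, the other 3 named here after their values were seen. Cluster 23 differed by 1.21 ± 1.10 between 7-day cold and thermoneutrality (adjusted p = 0.493).

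Against room temperature, cluster 36 was higher at 7 days by 1.54 ± 0.73 (limma, adjusted p = 0.264). The estimate for cluster 23 was 1.51 ± 1.10 (adjusted p = 0.518). In this contrast limma called 0 of 55 clusters (0%), with 10 at an unadjusted p under 0.05, edgeR called 0 and DESeq2 called 2 of 52. Between room temperature and thermoneutrality cluster 36 differed by 1.05 ± 0.73 (adjusted p = 0.923). The estimate for cluster 23 was -0.30 ± 1.10 (adjusted p = 0.940). Here limma called 0 of 55 clusters (0%), with 1 at an unadjusted p under 0.05, and both edgeR and DESeq2 called 0. For cluster 23 the estimates of these contrasts rest on 9 cells in 12 libraries, and the size of difference the contrasts could detect was not measured.

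Cluster 23 was a distinct group at several settings of the clustering. At resolution 0.4, 92.2% of its cells were in cluster 0, and at 0.6 and 0.8 most were in cluster 1 (81.4% and 80.2%), of which they made up 10.5% and 10.3%. That cluster of resolution 0.6 otherwise held mainly cells of cluster 0 of resolution 1.8, which were 74.8% of it. At resolution 1 cluster 23 separated: 1139 of its cells (82.7%) formed 98.5% of a cluster numbered 22, with 1156 cells. At resolution 1.2, 1139 of its cells (82.7%) again lay in 1 cluster, numbered 25, and made up 98.1% of it. At resolution 1.4 cluster 23 of that resolution held 91.2% of its cells, which were 83.7% of 1500. In the 2-day libraries, 78.6%, 80.4%, 82.7% and 79.1% of its cells in replicates 1 to 4 took number 1 at resolution 0.6, so its make-up in these terms was much alike in libraries with 28 and with 868 cells.

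Cluster 36 appeared as a cluster of its own only at resolution 1.8. At 0.4 and 0.6 it made up 7.74% and 7.75% of a larger cluster that held 99.1% of its cells. At resolution 1.2 it came from several clusters, with 446 cells from number 6, 121 from number 26, 100 from number 13 and 3 from number 0. It was at most 10.5% of any of these. The cells from number 13 came mainly from 1 library. Of its 129 cells in replicate 2 of 2-day cold, 82 (63.6%) had number 13, against 14 (20.3%), 2 (1.29%) and 1 (0.407%) in replicates 1, 3 and 4. Number 6 held 71.0%, 17.1%, 88.4% and 94.7% of the cluster's cells in replicates 1 to 4.

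The 121 cells of number 26 followed another pattern over housing than the rest of cluster 36. This split was chosen after the values were seen and is described without a test. Number 26 held 8 of the 9 cells of cluster 36 at thermoneutrality, 15 of 16 at room temperature and 42 of 46 at 7 days of cold, but 56 of 599 at 2 days. As a share of the library these cells were 0.0337% ± 0.0240 at thermoneutrality, 0.109% ± 0.124 at room temperature, 0.147% ± 0.0882 at 2 days and 0.237% ± 0.123 at 7 days (SD, n = 4 each). The thermoneutral libraries, at most 0.0583% (1 cell of 1715), overlapped those of room temperature. They lay below those of 7-day cold, from 0.144% up (5 cells of 3484). The lowest library of 2-day cold, at 0.0600% (6 cells of 10001), was barely above them, an order that a single cell could change. The other conditions overlapped with each other. The other 549 cells were 63, 105, 139 and 236 in replicates 1 to 4 of 2-day cold, a mean of 1.39% ± 0.725 (SD, n = 4). The remaining 12 libraries held 6 of them: 1 at thermoneutrality, 1 at room temperature and 4 at 7 days. In this respect the 549 cells resembled cluster 23.

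**Figure D2:**
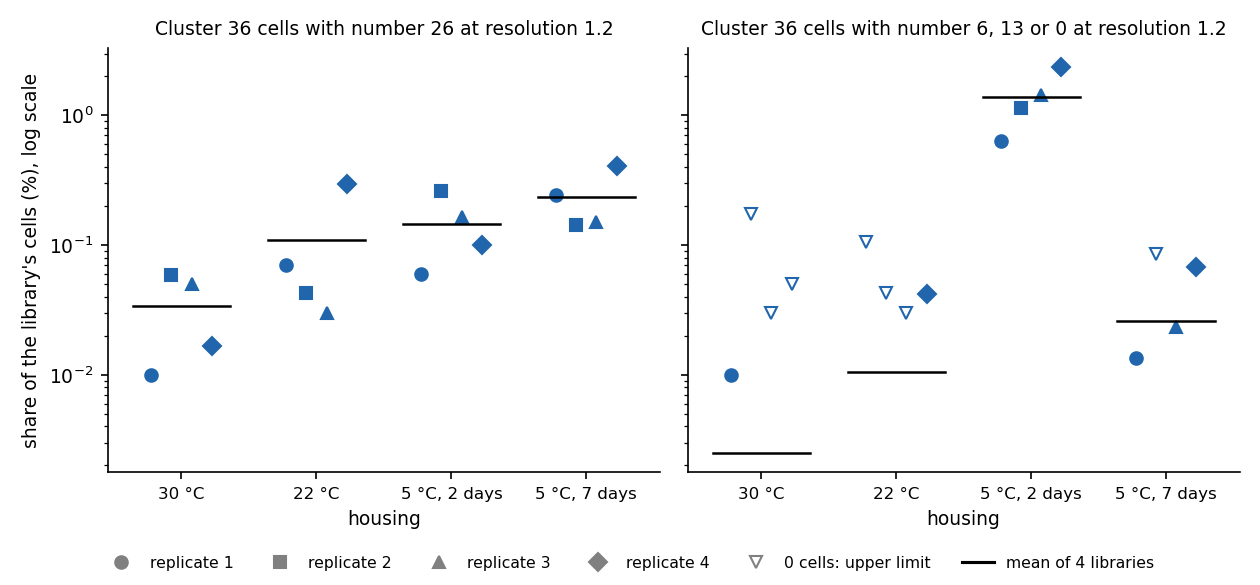
Cells of cluster 36 as a share of each library on a log axis, for those with number 26 at resolution 1.2 (left, 121 cells) and those with number 6, 13 or 0 (right, 549 cells). Symbols are libraries, open triangles upper limits where 0 cells were found, and bars means of 4 libraries with 0 counted as 0. On the left the thermoneutral libraries overlap those of room temperature and lie below both cold groups, which overlap each other, and on the right the libraries of 2-day cold, from 0.630% to 2.36%, lie above all others.

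Without number 26, cluster 36 in 2-day cold was higher than at thermoneutrality by 6.78 ± 0.85 on the log2 odds scale and higher than at room temperature by 6.50 ± 0.85. The estimates without number 26 rest on 6 cells in the 12 libraries outside 2-day cold, so their size depends on the 0.5 cells added. The difference between 7-day cold and thermoneutrality was 1.4 ± 0.85, against 2.58 with all its cells. It rests on 4 cells at 7 days and 1 at thermoneutrality, and is given without a test. Leaving out number 26 removed 42 of 46 cells at 7 days and 8 of 9 at thermoneutrality, so nothing is read from the change. The fall from 2 to 7 days was then -5.38 ± 0.85, against -2.51 with all its cells. At resolution 1.2 the cluster numbered 26 was made up mainly of cluster 29 of resolution 1.8, from coarse cluster 8, which gave 1023 of its 1147 cells. Those 1023 cells had a median S score of -0.0412, and 16.5% of them were called S. At resolution 0.8, 122 cells of cluster 36 instead shared a number with cluster 38 of resolution 1.8, which gave 81.0% of that cluster. At resolution 1.4, 122 cells of cluster 36 lay in a cluster of 656 cells, whose other cells are not described here. Clusters 29 and 38 are named here after their values were seen.

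Both clusters consisted largely of cells called S, with few or no cells called G2M. The genes behind the scores may have taken part in the clustering, whose inputs were not examined here, so scores of a cluster against other cells are described without a test. In cluster 23, 94.7% of cells were called S, 5.30% G1 and 0 of 1377 G2M, which allows a share of up to 0.218%. In cluster 36, 89.9% were called S, 6.57% G1 and 3.58% G2M. These were the 2 of 61 clusters at resolution 1.8 with at least 80% of cells called S. The median S score was 0.0724 in cluster 23 and 0.0638 in cluster 36, and the median G2M score was -0.0496 and -0.0404. A positive S score with a negative G2M score was found in 82.9% of the cells of cluster 23 and 77.0% of those of cluster 36.

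The scores set both clusters apart from the other clusters of their coarse clusters, each taken as a whole. This comparison of whole clusters does not show whether the profile ended at their borders. The other 9 clusters in coarse cluster 0 with at least 50 cells had median S scores from -0.00482 to 0.0125, median G2M scores from -0.0351 to -0.0116, and 38.2% to 51.8% of cells called S. The other 4 in coarse cluster 1 had median S scores from 0.0119 to 0.0284, median G2M scores from -0.00903 to 0.00323, and 48.0% to 57.2% of cells called S. None of these other clusters had more than 32.8% of its cells from 2-day cold. The highest median S score of all was that of cluster 46, at 0.377 with a median G2M score of 0.556, and 41.5% of its cells were called S. Cluster 46, named after its values were seen, was thus high in both scores, whereas clusters 23 and 36 were raised in the S score only and at a lower level. Its cells were also deeper, with a median of 10936 UMIs. Phase calls alone do not show that cells were cycling.

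**Figure D3:**
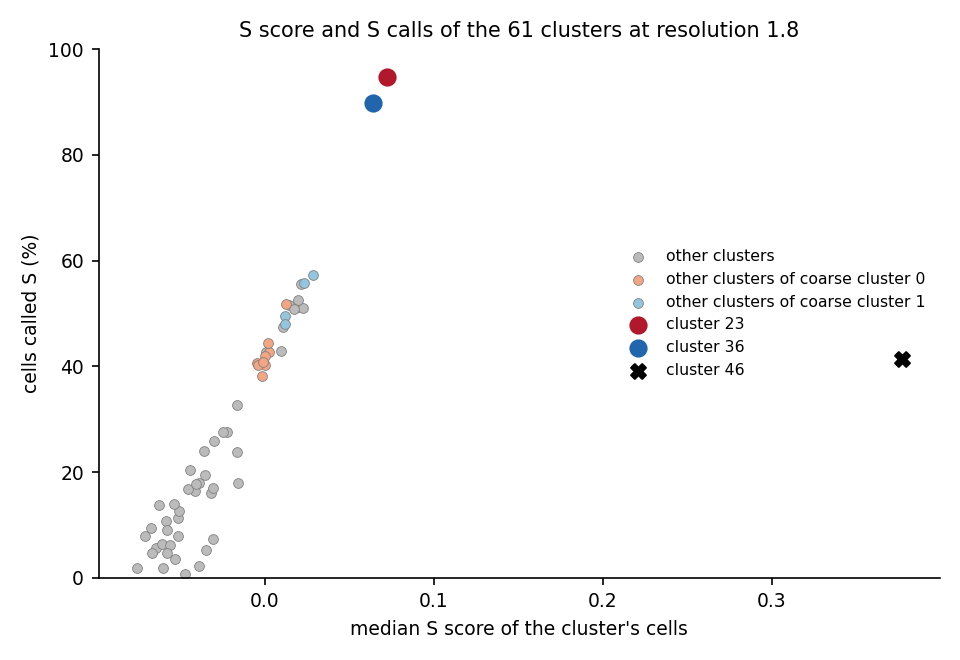
Median S score (horizontal) and percent of cells called S (vertical) for each of the 61 clusters at resolution 1.8. Clusters 23 (0.0724, 94.7%) and 36 (0.0638, 89.9%) lie above the other clusters of coarse clusters 0 and 1, and cluster 46 has a median S score of 0.377 with 41.5% called S.

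The difference in score was present in each library of 2-day cold. Neighbours are here the cells of the same library and the same coarse cluster, without clusters 23 and 36. The median S score of cluster 23 was 0.0934, 0.0846, 0.0702 and 0.0750 in replicates 1 to 4, against -0.000770, 0.00994, -0.000980 and 0.000277 in its neighbours. For cluster 36 it was 0.0544, 0.0598, 0.0808 and 0.0680, against 0.00976, 0.0174, 0.0260 and 0.00823. No member value overlapped a neighbour value. Of the neighbours, 3.93% to 8.07% reached the median S score of cluster 23 in their library, and 13.3% to 18.7% reached that of cluster 36.

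The G2M score ran the other way. The median of cluster 23 was -0.0607, -0.0544, -0.0476 and -0.0513 in replicates 1 to 4, and that of its neighbours -0.0130 to 0.00374. The median of cluster 36 was -0.0572, -0.0321, -0.0351 and -0.0478, and that of its neighbours -0.000597 to 0.0165. The neighbours were called G2M in 29.2% to 37.7% of cells (coarse cluster 0) and 31.1% to 38.7% (coarse cluster 1). In cluster 36 the share called G2M was 5.80%, 3.10%, 1.29% and 0.813%. Cells called S made up 100%, 96.1%, 93.2% and 97.1% of cluster 23 and 35.5% to 43.8% of its neighbours. They made up 91.3%, 88.4%, 94.2% and 95.5% of cluster 36 and 43.2% to 50.4% of its neighbours.

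Scores can move with depth, so the neighbours were also weighted to the UMI counts of the cluster's cells, in bins of 0.5 on the log2 scale. With matched depth the mean S score of cluster 23 was higher than that of its neighbours by 0.0798 ± 0.0116 and that of cluster 36 by 0.0527 ± 0.00960 (SD over 4 libraries), higher in 4 of 4 libraries in both. The mean G2M score was lower by a difference of -0.0494 ± 0.00529 and -0.0481 ± 0.00354, in 4 of 4 libraries. The share called S was 59.0 ± 3.41 and 48.5 ± 4.49 percentage points higher. Without replicate 1, whose mitochondrial share stood apart, the S score differences were 0.0743 and 0.0552. For cluster 23 the gap was smaller against the cells outside it that shared its number at resolution 1.4. Over fewer libraries, it was then 0.0430 in S score, -0.0154 in G2M score and 20.4 points in S calls. Those cells thus shared part of the profile of cluster 23. Cells of cluster 23 below its median UMI count had a median S score of 0.0776 and those at or above it 0.0689. In cluster 36 these medians were 0.0637 and 0.0639. Cells were not thinned to a common depth, since that needs the counts of single genes, and the part of free RNA in the scores was not tested.

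**Figure D4:**
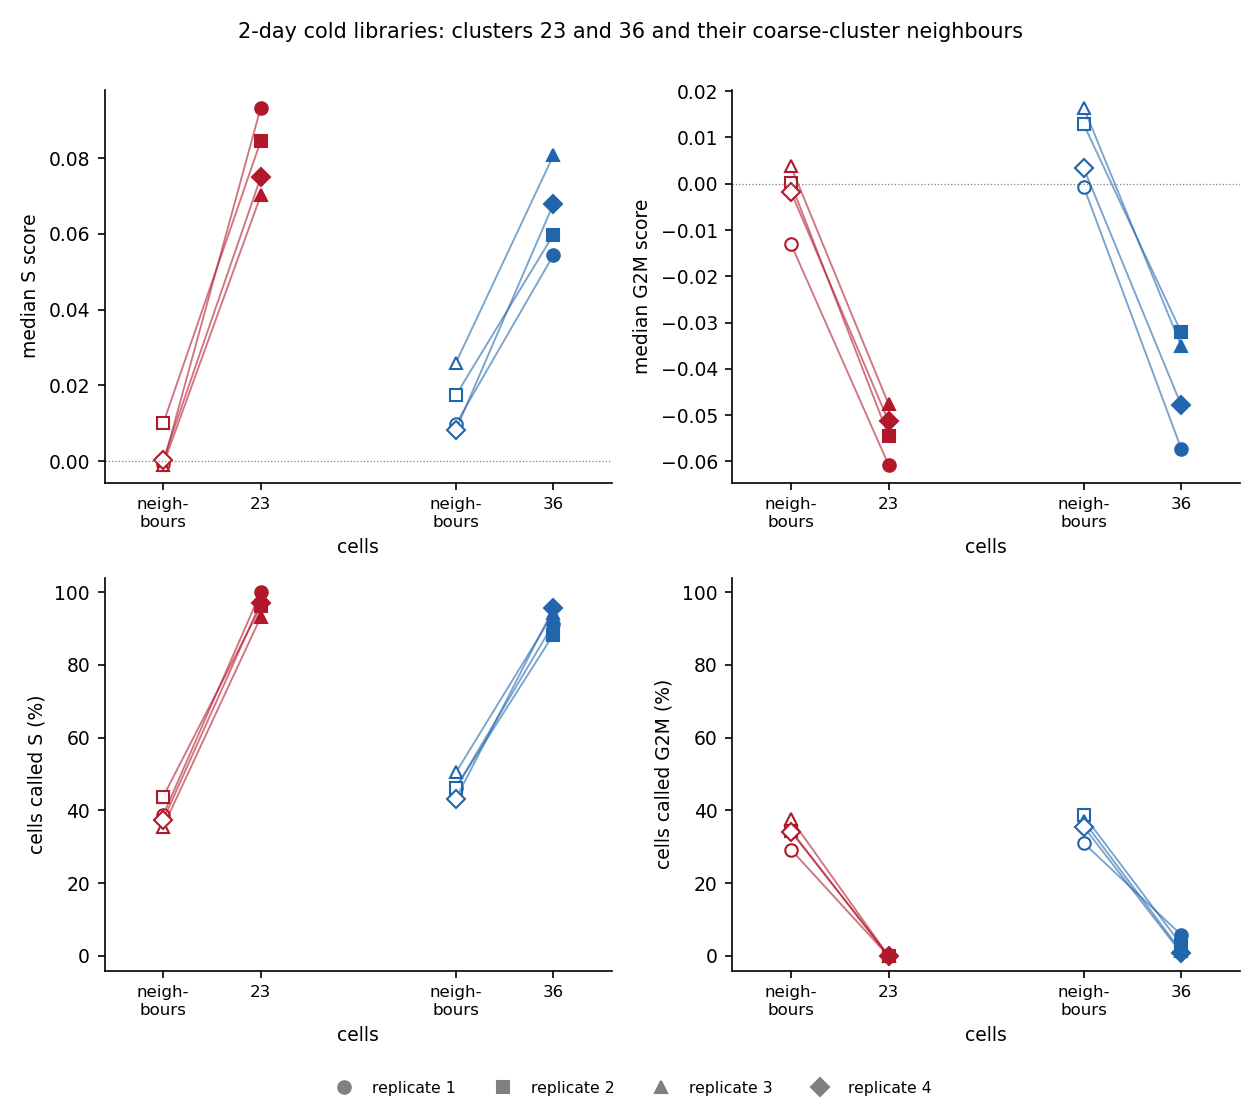
Median S score, median G2M score and percent of cells called S and G2M in each library of 2-day cold, for cluster 23 (red) and cluster 36 (blue, filled) and their neighbours in the same coarse cluster (open). Lines join values of 1 library. In every library the clusters lie above their neighbours in S score and S calls, and below them in G2M score and G2M calls.

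The scores varied between the parts of each cluster. In cluster 23 the cells with numbers 1, 0, 5 and 10 at resolution 0.6 (1121, 149, 67 and 40 cells) had median S scores of 0.0742, 0.0526, 0.0804 and 0.0921, with 87.2% to 100% called S. At resolution 1.2 its 1139 cells of number 25 had a median S score of 0.0748 with 95.3% called S. Its 91 cells of number 3 were lower, at 0.0442 with 86.8%, and its 15 cells of number 1 lower still, at 0.0198 with 73.3%. In cluster 36 the cells of number 6 and number 13 at resolution 1.2 had median S scores of 0.0769 and 0.0648, with 97.5% and 98% called S and 0% called G2M in both. Together with number 0 they were 549 cells, with a median S score of 0.0752, 97.6% called S and 0 called G2M, which allows a share of up to 0.546%. The 121 cells of number 26 had a median S score of 0.0113, with 54.5% called S, 19.8% G2M and 25.6% G1. The share called S is within the range of the other clusters of coarse cluster 1, but the other values are not. The median S score was just below their lowest, 0.0119, and the median G2M score, -0.0169, below their lowest, -0.00903. The share called G2M was below their lowest, 27.1%, and the share called G1 above their highest, 24.4%. In 2-day cold, 50.0% of the 56 cells of number 26 were called S, and at 7 days 59.5% of its 42 cells.

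The few cells found outside 2-day cold were called S throughout in cluster 23 and had mixed calls in cluster 36. All 9 cells of cluster 23 there were called S, with S scores from 0.00799 to 0.187 and a median of 0.0676. Of the 71 cells of cluster 36 there, 62.0% were called S and 16.9% G2M, with a median S score of 0.0189, and 65 of them had number 26. In replicate 1 of 7-day cold the cluster's 19 cells were called S in 57.9%, against 57.5% of its neighbours. In replicate 3 of 7-day cold its 15 cells were called S in 73.3%, against 59.2%.

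The design allowed a test of the cells of cluster 36 between 7 and 2 days of cold in libraries with at least 10 cells, which were 2 and 4 libraries. Cluster 23 had at most 2 cells in a 7-day library and was not tested. The choice of the clusters used the numbers of cells in this contrast, not these measures. The percent called S averaged 65.6 ± 10.9 (SD, n = 2) at 7 days and 92.3 ± 3.18 (SD, n = 4) at 2 days. The values did not overlap, and the exact permutation p, two-sided, was 0.133, the smallest this design can give (adjusted p = 0.311 over 7 measures). The median S score averaged 0.0250 ± 0.0122 and 0.0658 ± 0.0115, also with an exact p of 0.133. The ratio of log genes to log UMIs gave the same p, and UMI count, gene count, mitochondrial share and G2M score had exact p-values from 0.267 to 0.8. With libraries of at least 5 cells, 4 against 4, the percent called S was 59.2 ± 28.5 at 7 days and 92.3 ± 3.18 at 2 days (exact permutation p = 0.0286, the smallest this set can give, adjusted p = 0.200). The 7-day libraries added here held 5 and 7 cells. In this set the median S score overlapped, at 0.0276 ± 0.0385 and 0.0658 ± 0.0115 (exact permutation p = 0.114). The share of number 26 moved with the percent called S, at 91.3% of the cluster's cells at 7 days and 9.35% at 2 days.

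In 2-day cold the clusters held a sizeable part of the S calls of their coarse clusters. Cluster 23 made up 7.71%, 3.21%, 37.0% and 29.3% of the cells called S in coarse cluster 0 in replicates 1 to 4, and cluster 36 made up 16.7%, 20.1%, 20.4% and 23% of those in coarse cluster 1. With them, 44.2% ± 2.46 of coarse cluster 0 and 51.7% ± 2.80 of coarse cluster 1 were called S in 2-day cold (SD, n = 4). Without them the shares were 38.9% ± 3.55 and 46.5% ± 2.98, which had to be lower, since the cells left out were nearly all called S. In the other conditions the clusters held few cells, and the shares with them were 38.1% ± 3.05 and 50.4% ± 2.39 at thermoneutrality, 47.7% ± 2.10 and 62.2% ± 2.61 at room temperature, and 46.1% ± 2.77 and 58.3% ± 1.44 at 7 days. Differences between conditions in these shares were not tested.

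In depth and mitochondrial content the clusters lay nearer to their neighbours. Of the neighbours, 49.9% to 78.0% reached the median UMI count of cluster 23 in their library, and 67.4% to 72.1% reached that of cluster 36. The median UMI count of cluster 23 was 1793.5, 2084, 2201.5 and 1726 in replicates 1 to 4 of 2-day cold, against 1950, 2389, 2252 and 1725 in its neighbours. It was higher in 1 of 4 libraries. Its median number of genes was 817, 958, 1009 and 803, against 882, 1028, 1033 and 810. Cluster 36 had median UMI counts of 2172, 3215, 2980 and 2080.5, against 2476, 3760, 3518.5 and 2335, lower in 4 of 4 libraries, with a mean difference of -410.5. Its median number of genes was lower in 4 of 4 libraries, with a mean difference of -106.9.

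At matched depth the gene count differed from the neighbours' by -1.96 ± 12.0 for cluster 23 and by -30.3 ± 7.87 for cluster 36 (SD, n = 4). The median mitochondrial share of cluster 23 was 4.37%, 2.62%, 3.80% and 3.73%, and that of cluster 36 was 3.94%, 2.27%, 3.66% and 3.28%. In replicate 1, with a library median of 29.1%, both clusters and their neighbours were thus below 5%, the neighbours at 4.90% and 3.98%. The 9 cells of cluster 23 outside 2-day cold had a median of 2499 UMIs, and the 71 cells of cluster 36 there a median of 2793.

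**Figure D5:**
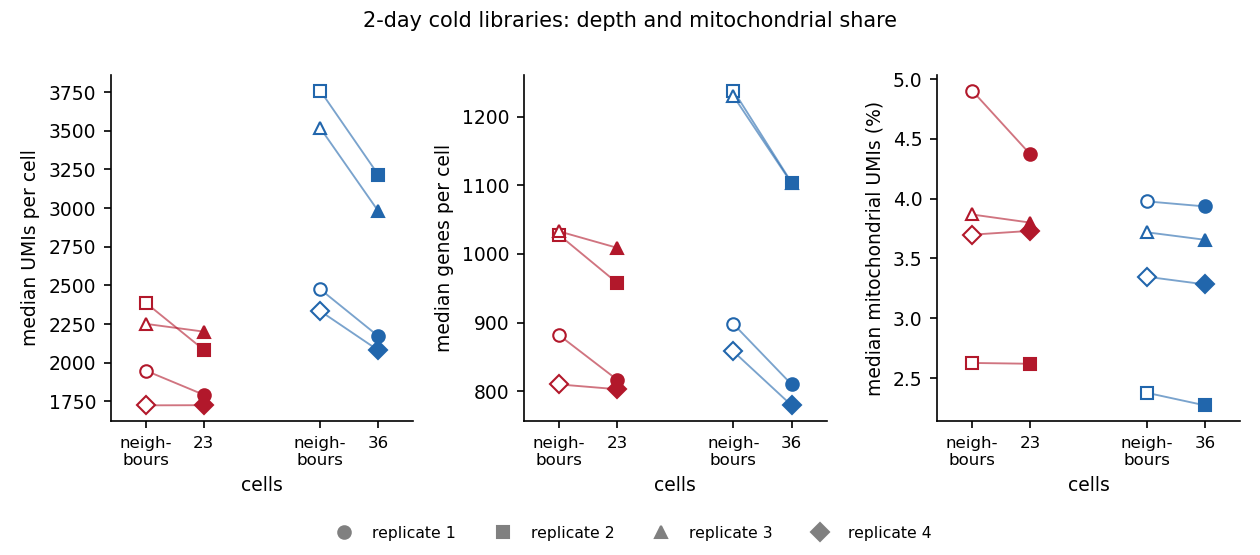
Median UMI count, median gene count and median mitochondrial share per cell in each library of 2-day cold for cluster 23 (red) and cluster 36 (blue), filled, and their neighbours, open. Lines join values of 1 library, and the vertical axes do not start at 0. Cluster 36 lies below its neighbours in UMI and gene counts in 4 of 4 libraries, and mitochondrial shares stay between 2.27% and 4.90%.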

How the data were processed

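Droplet-based single-cell RNA sequencing of 16 libraries was aligned to mm10 with STAR and Cell Ranger 3.0.1, per the submitters' processing notes. How cells were filtered, integrated and clustered is not given in the sources used here. Per the file headers, the authors deposited for each cell its UMI and gene counts, the mitochondrial ratio (a fraction of UMIs) and genes-per-UMI ratio, S and G2M scores, the phase call and cluster numbers at resolutions 0.1 to 1.8. No gene-level values were used, doublets were not called, and library totals are of the cells kept. The clusters, lists and tests were chosen with earlier results of these data known.

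Cells were counted per library and cluster. Shares were compared with limma 3.58.1 (R 4.3.3) on log2 odds, with 0.5 cells added, over the 55 clusters that averaged 10 or more cells a library, all 16 libraries in one fit, Benjamini-Hochberg adjustment and a threshold of 0.05. The fit was run on simulated data with normal errors of equal spread in all housings, and nothing is read from that here. edgeR 4.0.16, DESeq2 1.42.0, other scalings and filters, and each library left out were alternatives. Neighbours were the other cells of the same library and coarse cluster, in libraries with at least 10 cells. Clusters named beside 23 and 36 were those with at least 10% of the coarse cluster's cells, those sharing a number or nearest in UMI count, and those said to be named later. Zero limits are 3 cells of the total.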

Additional observations from a re-analysis of the deposited data

Results flagged for a closer look

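Of 52 groups of 4 libraries examined, 6 had a library far from the other 3. The rule flags about 1 in 20 normal, independent groups. These groups reuse the same libraries and some hold counts of 0, so the number flagged is not set against that rate. At room temperature, replicate 4 had a higher share of cluster 23 than the others (0.0419% of the library and 0.105% of coarse cluster 0), a value that rests on 1 cell against 0 in the other 3. The same library had the highest share of cluster 36, 0.336%, from 8 cells. In 2-day cold, replicate 1 had the lowest share of cluster 36 in coarse cluster 1, 9.22%, below 11.6% to 12.1% in the others. Replicate 1 also had the largest gap in mitochondrial share at matched depth between cluster 23 and its neighbours, -1.22 percentage points, and this is the library with a median of 29.1% mitochondrial UMIs. The gap in G2M calls between cluster 36 and its neighbours was smallest in that library, at -26.8 percentage points. Whether the mitochondrial share of the library moved these values was not tested.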

How the results depend on the processing

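Over all results and alternatives, 542 values were labelled unchanged and 32 were not. Unchanged meant the same side of the threshold, a move smaller than the spread, or the same number of called clusters. The measures of cluster 36 between 7 and 2 days were all labelled unchanged, but most of these values could not have passed the threshold. With 2 against 4 libraries the smallest exact permutation p was 0.133. Among differences that were not called, the sign changed for cluster 23 between room temperature and thermoneutrality (-1.02 to 0.20), and for gene count (-81.7 to 155.1) and the genes-to-UMI ratio (-0.0140 to 0.00526) of cluster 36 between 7 and 2 days. For cluster 36 between 7-day cold and thermoneutrality (2.58), the difference passed the threshold with DESeq2 (2.87), with cells under 20% mitochondrial UMIs (2.60), as a share of the coarse cluster (2.38), and without replicate 4 of room temperature (2.58). Leaving out 1 library at a time gave 2.24 to 2.94 for this difference and 0 to 1 called clusters in the contrast. Called clusters numbered 3 with DESeq2, 3 under 20% mitochondrial UMIs and 2 as shares of the coarse cluster. For 7-day cold against room temperature they numbered 2, 2 and 1, and 2 within replicates 1 and 2. For cluster 23 and 2-day cold, edgeR gave 8.18 against thermoneutrality, 9.03 against room temperature and -7.09 for 7 minus 2 days, and DESeq2 gave 9.06 and -7.00 for the last 2. Within replicates 1 and 2 these were 5.16 and -3.39, and within replicates 3 and 4 they were 8.53 and -7.28. Without the cells of number 26, a choice made after seeing the data, cluster 36 gave 6.78, 6.50 and -5.38, sizes that depend on the 0.5 cells added. Against all other cells of the library, cluster 36 differed at matched depth by 0.0643 in S score, -0.0323 in G2M score and 53.9 points in S calls, and without number 26 by -0.0520 in G2M score and 53.9 points. Against cells that shared its number at resolution 1.4, cluster 23 differed by 0.0430, -0.0154 and 20.4 points, over 3 libraries.

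The replicate block left the difference for cluster 36 at 2.58 (limma, adjusted p = 0.0897) and 0 clusters called in each tested contrast, and changed no call. Same-numbered libraries had correlations of -0.206 to 0.687 (median 0.262, 19 of 24 above 0.1), and others a median of -0.148. Since not every same-numbered correlation was above 0.1, numbers were not taken as pairs, although 11 of 16 libraries correlated best with their own number, which is a hint of pairing from the data. The minimum of 20 cells gave no value for 7-day cold, where libraries held at most 19. Arcsine values of the untested contrasts were not compared with the others. Shares outside 2-day cold rest on 0 to 19 cells a library.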
